A study of Mus musculus with 8 samples.

Results

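A set of 8 genes of the amyloid precursor and tau systems was read in whole-brain RNA. They were App with its paralogs Aplp1 and Aplp2, the secretase genes Bace1 and Psen2, the tau gene Mapt, and the apolipoprotein genes Apoe and Clu. They were chosen by name, with no threshold on their values but with earlier results of these data known, and are 8 of 16,593 genes named on the array and 11 of its 25,697 probes. The RNA came from 4 male Hfe-/- × Tfr2mut mice and 4 male wild-type mice, all of the AKR strain and 13 weeks old. The mutants, homozygous for both alleles and bred by crossing the single mutants, ate 2% carbonyl iron for their last 3 weeks, and the wild-type mice stayed on a feed with about 0.02% iron, so that genotype and diet cannot be told apart. Mice were perfused with saline before brains were taken, and nothing in the labels says that samples were pooled. Signals are given in the intensity units of the cubic-spline-normalized table, a probe counts as detected in an array at a detection p under 0.01, and log2 signals were compared with limma.

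Amyloid precursor protein is a membrane protein of neurons and other cells that is cut in a series of steps. Cleavage by an alpha-secretase sheds its outer part, whereas cleavage by the beta-secretase BACE1 followed by gamma-secretase, whose catalytic subunit is a presenilin, releases amyloid beta. The messenger of human APP has been described to carry an iron-responsive element in its leader, a hairpin that iron regulatory proteins bind, and elements in that position act on translation. An array reads RNA and not translation, so the comparison of App with its paralogs given here is one of transcript signals. Tau, the product of Mapt, binds microtubules in axons, and apolipoprotein E and clusterin carry lipid and bind amyloid beta outside the cell.

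None of the 8 genes passed the study's threshold, an unadjusted p under 0.05, between mutant and wild-type brain. In the same limma fit 12.5% of the 8051 genes with a detected probe passed it in either direction, and 0.199% passed an adjusted p under 0.05, against 0 of the 8 genes. In each of the 8 genes the range of the 4 mutant arrays overlapped that of the 4 wild-type arrays, whereas 8.04% of all genes had no overlap. Counted by probe, the shares over all 11,204 detected probes were 12.7% at the unadjusted threshold, 0.17% at the adjusted one and 7.85% without overlap, and each count was 0 for the 11 probes. The log2 changes, mutant minus wild-type, ran from -0.24 for Aplp1 to 0.01 for Psen2 with a median of -0.12, against a median of 0.00048 over all genes. In the average-normalized table the medians were -0.11 for the 8 genes and -0.08 for all genes, so that they lay closer together. The sign was negative in 7 of the 8, beside 49.9% of all genes. All 11 probes were detected in all 8 arrays, with a highest detection p of 0.00627, so a filter on low signals removed none of them.

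**Figure D1:**
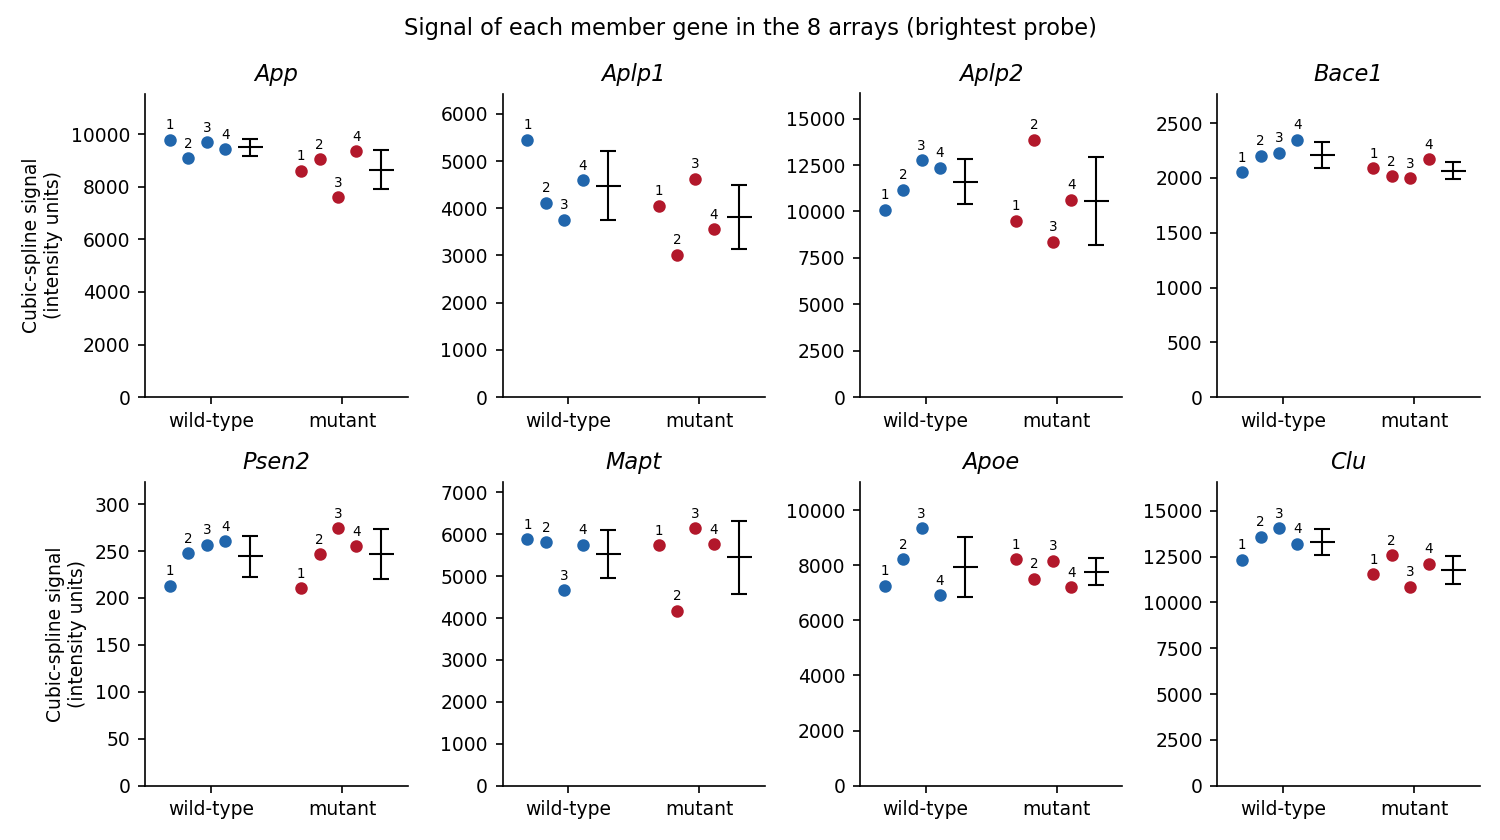
Cubic-spline signal (intensity units, linear axis from 0) of the brightest probe of each gene in the 4 wild-type (blue) and 4 mutant (red) arrays, with the replicate number above each point and bars for the mean ± SD of each group. In every panel the 2 groups overlap, and the points of App and Clu in 3 of 4 mutant arrays lie below all wild-type points.

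The 8 arrays were close to each other, with Pearson's r between their log2 signals across detected probes of 0.966 to 0.993, and 11,188 to 12,192 probes were detected per array. As a check of the labels, Hfe and Tfr2 gave no answer. A single Hfe probe was detected, with 314 to 356 units in mutant and 123 to 139.9 in wild-type arrays, but whether it lies in the deleted stretch is not known here. Neither its second probe nor the pair of probes for Tfr2 was detected in any array. Hfe lies on chromosome 13 and Tfr2 on chromosome 5, and none of the 8 genes shares a chromosome with either. Mutant and wild-type arrays sat on 1 BeadChip at alternating positions.

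App (chromosome 16), Aplp1 (chromosome 7) and Aplp2 (chromosome 9) encode the 3 mammalian members of the amyloid precursor family, of which App alone contains the amyloid beta sequence. Because the array compares the transcripts of these 3 genes, the stretches from which their transcription starts are shown as context. RefSeq promoter windows (GRCm38.p6) were at hand for 5 of the 8 genes. The 150 bases before the start site are written 5′ to 3′, with the GC box GGGCGG in capitals. They are chr16:85173708-85173857 for App, which lies inside the annotated span of the gene, chr7:30445583-30445732 for Aplp1 and chr9:31211849-31211998 for Aplp2, all on the minus strand.
App: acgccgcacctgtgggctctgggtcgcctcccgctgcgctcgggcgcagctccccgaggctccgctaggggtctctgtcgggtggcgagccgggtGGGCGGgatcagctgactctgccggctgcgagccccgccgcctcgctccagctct
Aplp1: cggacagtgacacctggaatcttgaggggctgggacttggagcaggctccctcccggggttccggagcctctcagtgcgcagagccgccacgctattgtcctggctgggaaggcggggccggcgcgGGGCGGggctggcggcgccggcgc
Aplp2: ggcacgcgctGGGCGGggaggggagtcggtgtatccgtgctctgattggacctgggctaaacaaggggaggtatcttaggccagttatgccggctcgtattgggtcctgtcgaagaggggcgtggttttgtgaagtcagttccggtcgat
Each window holds 1 GC box, searched on both strands, and 0 matches of TATAAA on either strand. Of 32,851 promoter windows of the same length 28.6% held a GC box and 7.57% a TATAAA. Guanine and cytosine make up 75.3% of the App window, 73.3% of that of Aplp1 and 59.3% of that of Aplp2, against a median of 54%, and 6.55%, 8.90% and 35.8% of all windows were at or above these values. These letters are a description of the windows and no binding site was measured.

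App signal in the mutant arrays was 8618, 9042, 7611 and 9348 units in replicates 1 to 4, and in the wild-type arrays 9785, 9087, 9690 and 9423. Replicates 1 to 3 of the mutant lay below every wild-type array and replicate 4 did not. The means were 8655 ± 757 and 9496 ± 313 (SD, n = 4 each), a log2 change of -0.14 (SE 0.0944, 95% interval -0.35 to 0.07), 1.10-fold lower in the mutant. The limma adjusted p was 0.549 (unadjusted 0.173) and the two-sided exact permutation p 0.0571, where 4 against 4 arrays can give no p below 0.0286. In whole brain, fewer cells of a type and less RNA per cell cannot be told apart, here or in any value that follows.

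Aplp1, whose protein is found mainly in neurons, varied more. Its signals were 4057, 3019, 4626 and 3557 units in mutant and 5449, 4122, 3755 and 4600 in wild-type arrays. Mutant replicate 2 was the lowest of all 8 arrays and wild-type replicate 1 the highest, and the other 6 were interleaved. The log2 change was -0.24 (SE 0.153, 95% interval -0.57 to 0.10; limma adjusted p = 0.531, exact permutation p = 0.229).

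Aplp2, the more widely expressed paralog, gave 9496, 13,856, 8361 and 10,629 units in mutant and 10,101, 11,174, 12,755 and 12,361 in wild-type arrays. Mutant replicate 2, the lowest array for Aplp1, was here the highest of all 8. The other 3 mutant arrays included the lowest values, and the log2 change over all arrays was -0.15 (SE 0.151, 95% interval -0.49 to 0.18; limma adjusted p = 0.684, exact permutation p = 0.457). Without mutant replicate 2 it was -0.29, at an unadjusted limma p of 0.0410 and an adjusted p of 0.417.

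The question of whether App differed from its paralogs was put to the ratio of App to each paralog within an array, which compares changes and not levels. The App change minus the Aplp1 change was 0.10 on the log2 scale (SE 0.218, two-sided exact permutation p = 0.686). The App change minus the Aplp2 change was 0.01 (SE 0.142, exact permutation p = 0.943). Both p-values are 0.943 after adjustment over the 2 paralogs. The SD of the App to Aplp1 ratio was 0.378 among mutant and 0.218 among wild-type arrays (n = 4 each), and the SE of either difference was larger than the App change itself. Without mutant replicate 2 the difference from Aplp1 was -0.03 (exact permutation p = 0.83).

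**Figure D2:**
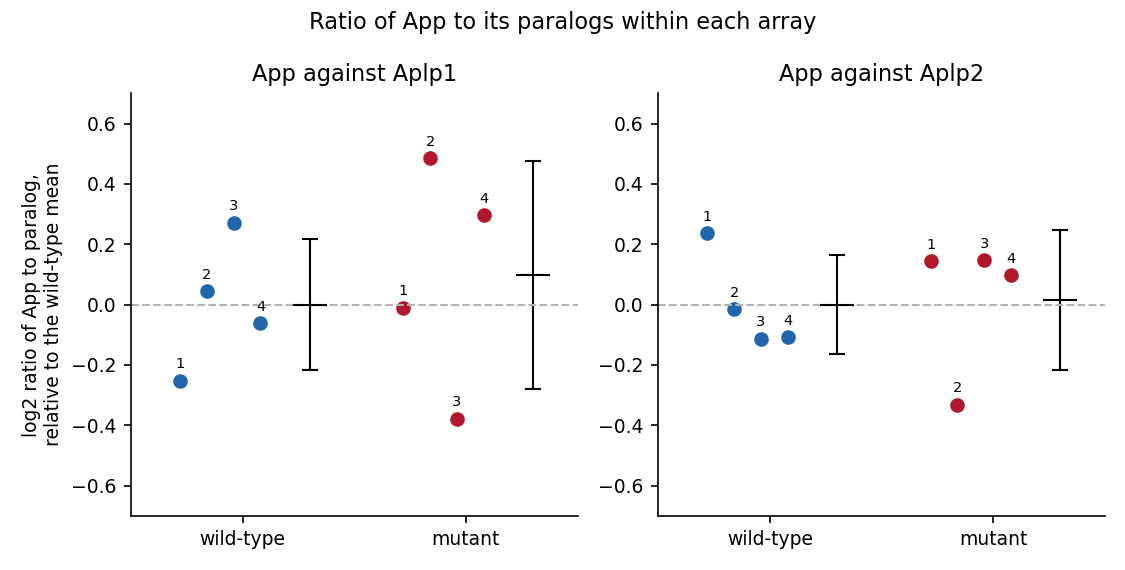
Log2 ratio of App to Aplp1 (left) and of App to Aplp2 (right) within each array, with the wild-type mean set to 0. Points are single arrays with their replicate numbers and bars are mean ± SD (n = 4). Mutant replicate 2 is the highest point on the left and the lowest on the right, and the groups overlap in both panels.

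Bace1 and Psen2 are the secretase genes of the set. Bace1 (chromosome 9), the beta-secretase that makes the first cut towards amyloid beta, gave 2090, 2013, 1995 and 2169 units in mutant and 2053, 2202, 2228 and 2347 in wild-type arrays. The SE of its log2 change was the smallest among the 8 genes, and the change was -0.09 (SE 0.0868, 95% interval -0.29 to 0.10; limma adjusted p = 0.657, exact permutation p = 0.114). Psen2 (chromosome 1), presenilin 2, gave 210.3, 246, 274 and 255 units in mutant and 213, 248, 257 and 261 in wild-type arrays. Replicate 1 was the lowest array in both groups, and the log2 change was 0.01 (SE 0.111, 95% interval -0.24 to 0.26; limma adjusted p = 0.975, exact permutation p = 0.971). Its sign was not stable and turned negative after Average normalization (-0.12) and when mutant replicate 3 or 4 or wild-type replicate 1 was left out (-0.044, -0.0089 and -0.055).

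The wider secretase list gave 0 genes past the unadjusted threshold in either direction. Of its genes 11 had a named probe and 9 a detected one, and its median log2 change was -0.05. Beside Bace1, the lowest p-values belonged to Bace2, the homolog of Bace1, with a change of -0.15 (SE 0.139, limma adjusted p = 0.657), and Psenen, a gamma-secretase subunit, with 0.11 (SE 0.105, adjusted p = 0.662). Adam10, the main alpha-secretase of neurons, and Aph1c were detected in 0 arrays.

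Mapt (chromosome 11) had 4 probes, and they did not give 1 picture. The brightest, ILMN_2740020, gave 5745, 4178, 6142 and 5760 units in mutant and 5880, 5815, 4662 and 5746 in wild-type arrays. Mutant replicate 2 and wild-type replicate 3 lay below the other 6 arrays, which were all between 5745 and 6142. The log2 change was -0.03 (SE 0.136, 95% interval -0.33 to 0.27; limma adjusted p = 0.947, exact permutation p = 0.771). The second probe of the same annotated transcript, ILMN_1257750, had 1475, 1231, 1817 and 1494 units in mutant and 2136, 1641, 1307 and 1484 in wild-type arrays. Its log2 change was -0.12 (SE 0.162). Here too mutant replicate 2 and wild-type replicate 3 were the lowest.

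The other 2 Mapt probes are annotated to a second transcript of the gene and were dim. Which exons each of the 4 probes reads is not known here, so they are compared as probes and not as transcripts. ILMN_3034121 gave 221, 159, 201 and 249 units in mutant and 189, 191, 199 and 189 in wild-type arrays, with a log2 change of 0.09 and a 95% interval of -0.19 to 0.38. ILMN_3107817 gave 160, 77.7, 128 and 204 units in mutant and 101, 80.1, 124 and 94.6 in wild-type arrays. Its log2 change was 0.44 (SE 0.254, 95% interval -0.12 to 1.01; limma adjusted p = 0.483, exact permutation p = 0.229). For this probe 3 of 4 mutant arrays were above every wild-type array and mutant replicate 2 was below all of them. The mean of these 2 probes minus that of the first 2 was 0.34 higher on the log2 scale in mutant than in wild-type arrays (two-sided exact permutation p = 0.171), a contrast that was formed after the values were seen.

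**Figure D3:**
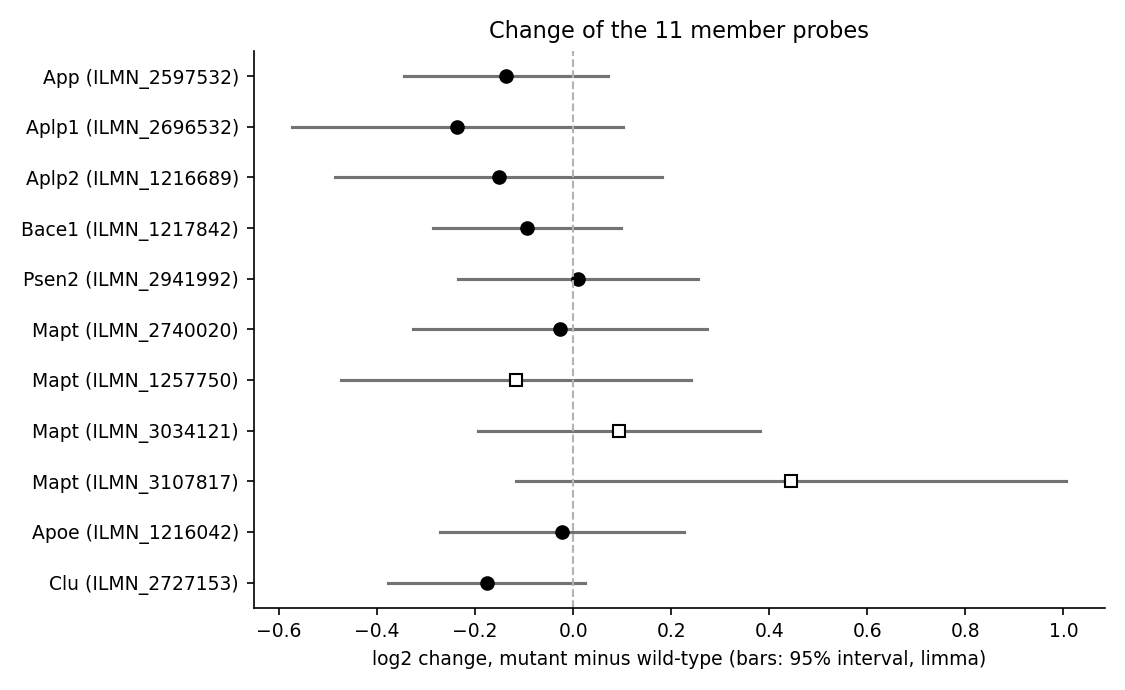
Log2 change, mutant minus wild-type, of all 11 probes with the 95% interval of limma. Filled circles are the brightest probe of each gene and open squares the other 3 probes of Mapt. Every interval includes 0, and the widest belongs to ILMN_3107817 of Mapt.

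Apoe (chromosome 7), the lipid carrier made largely by astrocytes, gave 8218, 7516, 8160 and 7199 units in mutant and 7255, 8224, 9343 and 6921 in wild-type arrays. The mutant values lay inside the wild-type range, and the log2 change was -0.02 (SE 0.113, 95% interval -0.27 to 0.23; limma adjusted p = 0.948, exact permutation p = 0.83). Clu (chromosome 14), clusterin, gave 11,525, 12,584, 10,849 and 12,105 units in mutant and 12,334, 13,571, 14,039 and 13,209 in wild-type arrays. As for App, 3 of the 4 mutant arrays lay below every wild-type array. The log2 change of -0.18 (SE 0.0911, 95% interval -0.38 to 0.02) had the lowest unadjusted p of the 8 genes, 0.0799 (limma adjusted p = 0.443, exact permutation p = 0.0571). Without wild-type replicate 1 the change was -0.21 with an unadjusted limma p of 0.0479, where 1136 of 11,204 probes passed. Clu did not pass when any other single array was left out, with unadjusted limma p-values up to 0.192.

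Over all 8 arrays no pair of the 8 genes varied together beyond the adjusted threshold. Once group means were removed, 2 pairs did by Pearson's r but not by Spearman's rho. Of the 28 pairs, 14 had a negative Pearson's r over the 8 arrays, 4 had a permutation p under 0.05 and 0 remained after adjustment over the pairs. Aplp2 went with Clu (r = 0.797, adjusted permutation p = 0.175; Spearman's rho 0.810, adjusted p = 0.391) and against Mapt (r = -0.801, adjusted permutation p = 0.175; rho -0.738, adjusted p = 0.403). Leaving out the 2 arrays farthest from the median of Aplp2 gave 0.898 and -0.635. App with Clu had r = 0.762 (adjusted permutation p = 0.175; rho 0.595, adjusted p = 0.617), which was 0.0481 without mutant replicates 1 and 3 and so rests on them. Aplp1 with Mapt had r = 0.752 (adjusted permutation p = 0.175; rho 0.786, adjusted p = 0.391) and 0.519 without mutant replicate 2 and wild-type replicate 1.

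With the mean of each group removed, a comparison chosen after the values were seen, 5 of the 28 pairs had a permutation p under 0.05 and 2 remained after adjustment. The pairings were permuted within the groups, which allows 576 arrangements. Aplp1 and Clu ran against each other in both groups (r = -0.992, adjusted permutation p = 0.0486; rho -0.976, adjusted p = 0.0875), although r was -0.19 over all arrays with group means kept. The r was still -0.992 without mutant replicate 3 and wild-type replicate 1. Aplp2 and Mapt also ran against each other (r = -0.880, adjusted permutation p = 0.0486; rho -0.929, adjusted p = 0.0875), with r = -0.646 without mutant replicates 2 and 3. No share over pairs of other detected probes is given, so how usual such values are on this array is not known here.

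Several of these genes, like many other probes, moved with the brightness of the array before normalization. The mean non-normalized signal was 677.5, 569.5, 740.7 and 604.6 units in mutant and 904.6, 739, 570.6 and 624.6 in wild-type arrays, so the groups overlapped. Aplp1 signal after cubic-spline normalization followed it (r = 0.832, adjusted permutation p = 0.0881; rho 0.905, adjusted p = 0.0290, 8 genes tested), with r = 0.580 when wild-type replicate 1 and mutant replicate 2 were left out. Mapt did so too (r = 0.667, adjusted permutation p = 0.229; rho 0.881, adjusted p = 0.0290; r = 0.746 without those arrays), and Aplp2 ran the other way (r = -0.641, adjusted permutation p = 0.229; rho -0.786, adjusted p = 0.0745; r = -0.688 without those arrays). For App r was -0.12 over all arrays and -0.76 without those 2, and for Clu it was -0.33 and -0.48. With group means removed, Clu had the largest absolute r of the 8 genes (r = -0.859, adjusted permutation p = 0.0347; rho -0.833, adjusted p = 0.0278). It was followed by Aplp1 (r = 0.832, adjusted permutation p = 0.0463; rho 0.786, adjusted p = 0.0764) and Aplp2 (r = -0.807, adjusted permutation p = 0.0139; rho -0.929, adjusted p = 0.0278). Without wild-type replicates 1 and 3 these r were -0.763, 0.707 and -0.897. For Mapt, with group means removed, r was 0.674 (adjusted permutation p = 0.111; rho 0.857, adjusted p = 0.0278), and 0.657 without those arrays. Clu, Aplp1, Aplp2 and Mapt are the genes of the pairs above, and the part of brightness in those pairs was not tested. Values over all arrays with group means kept are often this large here, since the median absolute r over all detected probes was 0.523. The share of probes with one as large was 13.9% for Aplp1, 34% for Mapt, 37% for Aplp2, 69.3% for Clu and 88.9% for App. No such share is given for the values with group means removed, so how usual those are on this array is not known here.

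**Figure D4:**
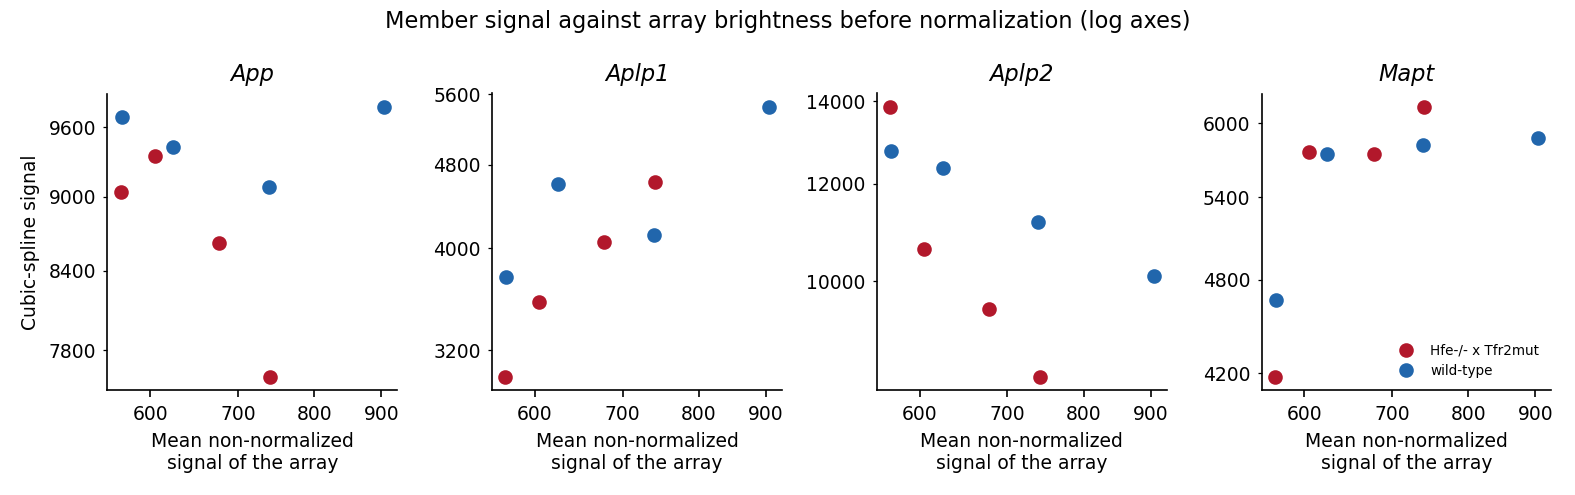
Cubic-spline signal of App, Aplp1, Aplp2 and Mapt (vertical, log axis) against the mean non-normalized signal of the array (horizontal, log axis, intensity units), 1 point per array. Aplp1 and Mapt were lower in the dimmer arrays and Aplp2 was higher, in red mutant and blue wild-type points alike.

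With array brightness as a covariate in the limma fit, an alternative chosen after the data had been seen, the Aplp2 change was -0.25 (unadjusted p = 0.0462, adjusted p = 0.293) and the Clu change -0.21 (unadjusted p = 0.0186, adjusted p = 0.229). These 2 genes then passed the study's threshold, as did 1848 of all 11,204 probes, against 1427 without the covariate. The App change was -0.16 (limma adjusted p = 0.396) and the Aplp1 change -0.14 (limma adjusted p = 0.535), so that the App change minus the Aplp1 change turned from 0.10 to -0.02. The part of brightness in the values of the 8 genes was otherwise not tested.

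A further 7 lists of related genes, written by hand, place the 8 genes among their partners. Over all genes 5.7% were lower and 6.79% higher in the mutant at the unadjusted threshold, and 0 genes of any of these lists passed an adjusted p under 0.05 in this fit. With array weights 1 did, Tfrc. The proteins that bind or sort amyloid precursor protein had 3 of 20 detected genes lower and 0 higher, with a median log2 change of -0.09. Sorl1, a sorting receptor that holds the precursor away from the secretases, gave 3441, 3143, 3982 and 3875 units in mutant and 5775, 4554, 4024 and 5051 in wild-type arrays, with no overlap (change -0.42, SE 0.129, limma unadjusted p = 0.00771, adjusted p = 0.278). Tmed10, a cargo receptor of the early secretory route that also binds gamma-secretase, spanned 2936 to 3499 units in mutant and 3708 to 4407 in wild-type arrays (-0.33, SE 0.0989, limma adjusted p = 0.270). Itm2a changed by -0.34 (SE 0.129, limma adjusted p = 0.332) and is also among the endothelial markers. It no longer passed without mutant replicate 1 or 4 or wild-type replicate 2 or 3, where its changes were -0.28, -0.31, -0.31 and -0.28.

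**Figure D5:**
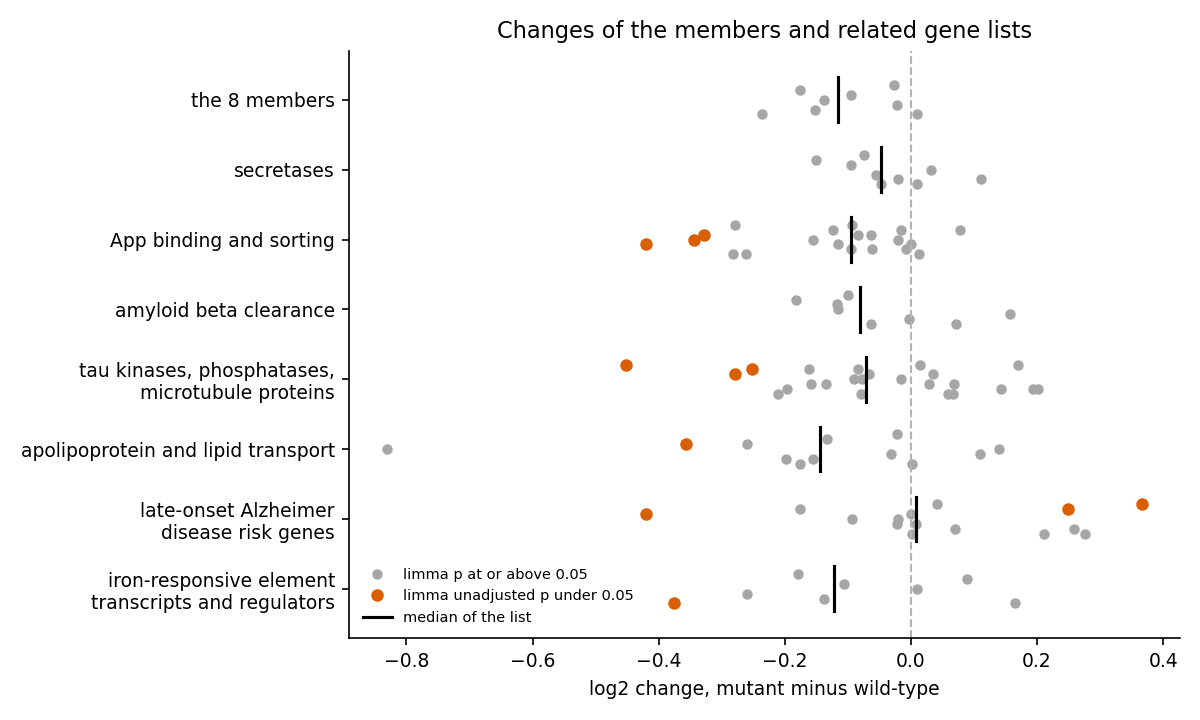
Log2 change, mutant minus wild-type, of each detected gene in the set of 8 and in the 7 related lists. Orange points passed an unadjusted limma p under 0.05, grey points did not, and black bars are list medians, which run from -0.14 to 0.01.

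Genes that remove amyloid beta gave 0 of 8 past the threshold, with a median change of -0.08. Their lowest p-values were those of Lrp1, the clearance receptor (-0.18, SE 0.124, limma adjusted p = 0.546), the lysosomal protease Ctsd (0.16, SE 0.122, adjusted p = 0.598) and Ece1 (-0.12, SE 0.112, adjusted p = 0.671). Lrp1 passed the unadjusted threshold in the average-normalized table, with a change of -0.33, and without wild-type replicate 1, with -0.29. The protease genes Ide, Ctsb and Ece1 were detected, and Mme, which encodes neprilysin, was on the array without passing the detection filter.

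Of the tau kinases, phosphatases and other microtubule proteins 3 of 24 detected genes were lower and 0 higher, with a median change of -0.07. Mark1, a kinase that phosphorylates tau in its microtubule-binding repeats, spanned 227 to 346 units in mutant and 336 to 399 in wild-type arrays (-0.45, SE 0.139, limma adjusted p = 0.279). Ppp2r1a, the scaffold subunit of the main tau phosphatase, spanned 5267 to 5761 and 6209 to 7330 units (-0.28, SE 0.0899, limma adjusted p = 0.291). Map7, a microtubule protein that recruits kinesin, changed by -0.25 (SE 0.0997, limma adjusted p = 0.344), and by -0.23, -0.20 and -0.22, no longer past the threshold, without mutant replicate 2, mutant replicate 3 and wild-type replicate 4.

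Among 12 detected genes of apolipoproteins and lipid transport, Pltp, which moves phospholipid between lipoproteins, was the 1 that was lower at the threshold. Its brightest probe changed by -0.36 (SE 0.129, limma adjusted p = 0.326) and its other probe by -0.49 (SE 0.203, limma adjusted p = 0.356). Without mutant replicate 2, mutant replicate 4 or wild-type replicate 2 the change of the brightest probe was -0.29, -0.31 and -0.33, with unadjusted limma p-values of 0.0537, 0.0550 and 0.0511. The median of the list was -0.14. Lcat, which esterifies cholesterol on lipoproteins, changed by -0.16 (SE 0.0877, limma adjusted p = 0.478).

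Of the genes linked to late-onset Alzheimer disease in human studies, 15 were detected, with a median change of 0.01. Sorl1 was lower, as above, and 2 microglial genes were higher. Trem2, a receptor of microglia for lipids, gave 495, 525, 453 and 402 units in mutant and 377, 406, 380 and 408 in wild-type arrays (0.25, SE 0.103, limma adjusted p = 0.359). Tyrobp, its signalling adaptor, spanned 194 to 263 and 129 to 209 units (0.37, SE 0.153, limma adjusted p = 0.364). After Average normalization neither passed, with changes of 0.16 and 0.23, nor did either with array weights, with 0.19 and 0.24. Trem2 did not pass with a replicate block (change 0.25), nor Tyrobp with BeadChip position as a covariate, without a detection filter or in an equal-variance test per probe. Trem2 also failed the threshold without mutant replicate 1 or 2 or wild-type replicate 1, 2 or 3 (changes 0.19 to 0.27), and Tyrobp without mutant replicate 2 or 3 or wild-type replicate 1 or 4 (0.24 to 0.37).

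Among transcripts with an iron-responsive element, and the genes of the proteins that bind it, 1 of 8 detected genes was lower and 0 were higher. This was Tfrc, the transferrin receptor, whose elements lie at the other end of the messenger from that of App and act on its stability. It gave 1204, 1222, 1282 and 1280 units in mutant and 1700, 1669, 1384 and 1742 in wild-type arrays, with no overlap (-0.38, SE 0.0987, limma unadjusted p = 0.00303, adjusted p = 0.215, and 0.0481 with array weights), and its other probe changed by -0.41 (SE 0.0985, limma adjusted p = 0.197). Genes whose element, like that of App, lies before the coding sequence were Fth1 (0.01, SE 0.158), Slc40a1 (-0.18, SE 0.162), Epas1 (-0.26, SE 0.234) and, as described in Drosophila, Sdhb (0.09, SE 0.107), and none of them passed the threshold when all arrays had equal weight. The Epas1 change was -0.53 both without wild-type replicate 3 and with array weights, and it passed the unadjusted limma threshold in both. Its probe was dim, with 74.2 to 94.9 units in mutant and 58.9 to 139 in wild-type arrays, and was detected in 4 and 3 of them.

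Markers of the cell types that express the 8 genes did not all behave alike. At the unadjusted threshold 5.7% of all genes were lower and 6.79% higher in the mutant. Median log2 changes were -0.13 for neuron, -0.07 for astrocyte, -0.17 for oligodendrocyte, 0.18 for microglia and 0.0024 for choroid plexus markers. Neuron markers had 2 of 9 detected genes lower (Syt1 -0.34, SE 0.124, and Syn1 -0.32, SE 0.143; limma adjusted p = 0.326 and 0.385) and 0 higher, with a summed signal of 89,837 to 91,616 units in mutant and 90,202 to 104,260 in wild-type arrays. The neuron markers Snap25, Nefl and Gad2 were detected in 0 arrays. Astrocyte markers had 1 of 11 lower, Aldh1l1, and summed to 54,013 to 58,536 and 54,339 to 62,985 units. Oligodendrocyte markers had 3 of 10 lower, Fa2h, Cnp and Ugt8a, with 74,968 to 78,705 and 78,512 to 86,570 units. Endothelial markers had 5 of 8 lower, Vwf, Slco1a4, Flt1, Tek and Itm2a, with a median change of -0.40 and 5087 to 6327 against 5986 to 7365 units. Of these, Slco1a4 was dim, with 41.0 to 109 units in mutant and 85.7 to 126 in wild-type arrays. It was detected in 1 mutant and 4 wild-type arrays, so it passed the detection filter only through the group where it was higher.

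Microglia markers had 3 of 10 higher, Aif1, Trem2 and Tyrobp, and summed to 4228 to 4601 units in mutant and 3793 to 4220 in wild-type arrays. These sums did not overlap either. Choroid plexus markers had 1 of 9 lower, Kl, with 29,663 to 38,926 and 31,930 to 39,811 units. Both hemoglobin genes that passed the detection filter, Hba-a1 and Hbb-b2, were higher. Hba-a1 spanned 1573 to 4548 units in mutant and 1159 to 2035 in wild-type arrays, and Hbb-b2 133 to 368 and 51.2 to 168. Mutant replicate 4 lay within the wild-type range for both. Hbb-b2 was detected in 4 mutant and 3 wild-type arrays, so it passed the filter only through the group where it was higher. The summed signal of the 8 genes themselves was 48,019 to 52,455 units in mutant and 53,069 to 56,728 in wild-type arrays, with no overlap. After Average normalization these sums overlapped, with 48,681 to 54,611 and 52,256 to 58,192 units. Clu, Aplp2, App and Apoe, the brightest of the 8, weigh most in the sums, and each of the 8 genes on its own overlapped. How often sums of other genes fail to overlap is not known here. What part a different share of these cells has in the values of the 8 genes was not tested.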

How the data were processed

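Total RNA of 8 mouse brains was labelled, amplified and hybridized to 1 Illumina MouseRef-8 v2 BeadChip. The authors subtracted background in GenomeStudio and deposited 3 tables of intensity values in arbitrary units, namely non-normalized, Average-normalized and Cubic Spline-normalized. Each deposited value has a detection p-value beside it, which sets the probe against the negative controls of the same array. How that software was set is not known here beyond this. All 8 arrays were assigned by their titles, with 0 columns of values unassigned.

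Gene names came from RefSeq annotation (23,962 of 25,697) or the platform annotation (16). With R 4.3.3 and limma 3.58.1, a probe was kept where all arrays of either group had detection p-values under 0.01 (11,204 probes, 8051 genes). Cubic-spline signals were floored at 10 and compared between the groups on the log2 scale with no covariate and Benjamini-Hochberg adjustment over the probes kept. A gene is read from its brightest probe. The methods name no test for the arrays and state that no multitest correction was applied, so counts use an unadjusted p under 0.05 beside the adjusted one. Single genes and ratios were also tested by exact permutation (two-sided) over the 70 assignments of 8 arrays, and correlations a permutation p over all pairings, or over the 576 within groups where group means were removed, which was added after the values were seen. The code was tested on simulated data. Figures were drawn with matplotlib 3.10.9.

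The 8 genes and the lists were chosen with earlier results of these data known. From each related list the text names every gene past the unadjusted threshold, and otherwise the 3 genes of lowest p, from marker lists the genes past it, and further genes were named after their values were seen. The labels give animals numbers from 1 to 4 in each group but do not say what they mark, and p-values measure the spread between these arrays. Their number limits the precision. Alternatives tried were other tables and normalizations, floors of 1 and 30, other detection filters, a replicate block, BeadChip position, array weights, an equal-variance test per probe, the mean of all probes of a gene and leaving out each array in turn.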

Additional observations from a re-analysis of the deposited data

Results flagged for a closer look

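In the brightest Mapt probe, ILMN_2740020, wild-type replicate 3 lay far from the other wild-type arrays, with 4662 units against 5746 in the nearest, a gap of 0.901 of the whole range of the group on the log2 scale. In the dim Mapt probe ILMN_3034121 the same array lay above the others, with 199 against 191 units, a gap of 0.833 of the log2 range, which spans few units. Dixon's test at 95% was applied to 22 groups of 4 arrays, 1 for each probe and group, and chance flags about 1 in 20.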

How the results depend on the processing

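Under 22 alternative settings, 8 of which left out 1 array, the results on the 8 genes and the App ratios gave 238 values, of which 204 kept their direction and side of the threshold, 21 changed sign, 7 passed a threshold that they had not passed and 6 were counts that moved. App, Aplp1, Aplp2, Bace1 and Clu kept a negative sign in all 22. In the average-normalized table, where the median of all genes was -0.08, the Psen2 change was -0.12 and that of Apoe 0.017. It was -0.038 for Psen2 with BeadChip position as a covariate and -0.050 with array weights, and 0.10 for Mapt as the mean of its probes. Clu passed the unadjusted limma threshold without a detection filter (change -0.18) and with array weights (-0.20), and that of an equal-variance test per probe (-0.18), which makes 1 gene past the threshold in each of these 3 settings. Over all probes 2051 of 25,697 passed without a detection filter and 2190 of 11,204 with array weights. In the equal-variance test 1436 of 11,204 passed, against 1427 in the main fit. With array brightness as a covariate 2 of the 8 genes passed, Aplp2 at -0.25 and Clu at -0.21, beside 1848 of 11,204 probes. The Psen2 change was then -0.023, that of Mapt 0.041 and the App change minus the Aplp1 change -0.020. The cause of these shifts was not tested.

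When single arrays were left out, the change spanned -0.18 to -0.08 for App, -0.33 to -0.13 for Aplp1, -0.29 to -0.047 for Aplp2, -0.13 to -0.06 for Bace1, -0.055 to 0.084 for Psen2, -0.11 to 0.10 for Mapt, -0.085 to 0.060 for Apoe and -0.21 to -0.14 for Clu. The number of the 8 genes past the unadjusted threshold spanned 0 to 1, being 1 without mutant replicate 2 (Aplp2) and without wild-type replicate 1 (Clu). Of all 11,204 probes, 1282 passed without mutant replicate 2 and 1136 without wild-type replicate 1. The App change minus the Aplp1 change spanned -0.031 to 0.26 and that minus the Aplp2 change -0.031 to 0.13. The latter was negative without mutant replicate 1 (-0.029), 3 (-0.031) or 4 (-0.014) and without wild-type replicate 3 (-0.024) or 4 (-0.022). The former was negative without mutant replicate 2 (-0.031). Psen2 was negative without mutant replicate 3 (-0.044) or 4 (-0.0089) or wild-type replicate 1 (-0.055), Mapt positive without mutant replicate 2 (0.10) or wild-type replicate 1 (0.0047), and Apoe positive without mutant replicate 4 (0.014) or wild-type replicate 3 (0.060).

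For the related lists and their named genes 601 of 681 values kept direction and side of the threshold, 0 changed sign, 27 lost the threshold, 11 gained it and 42 were counts that moved. Without wild-type replicate 1 the genes lower at the unadjusted threshold numbered 5 in the tau list, 3 in the apolipoprotein list, 2 among the risk genes and 1 in the clearance list. With array weights the lower genes numbered 5 in the App binding list, 5 in the tau list, 4 in the apolipoprotein list and 2 in the iron-responsive list, and Tfrc passed an adjusted p under 0.05. Those of the App binding list also numbered 5 without a detection filter and in the equal-variance test. Over all probes, in either direction, 1136 of 11,204 passed without wild-type replicate 1 and 2190 with array weights, against 1427 in the main fit. The numbers were 2051 of 25,697 without a detection filter and 1436 of 11,204 in the equal-variance test. The setting that requires detection in all 8 arrays gives no value for Epas1. Same-numbered arrays did not deviate together (r of 0.101, -0.143, -0.348 and 0.098 for numbers 1 to 4), and 2 of 8 arrays correlated best with their own number. A replicate block changed no call of the 8 genes, ended the call of Trem2 (change 0.25), left App at -0.14, and gave 1128 probes past the unadjusted threshold against 1427 without it.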

Other observations

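The detected probes of other genes whose signal was most like that of App over the 8 arrays were those of Fam163a (Pearson's r = 0.968), Fam20c, a secretory kinase (0.963), Stard8 (0.962), Nkd2, an inhibitor of Wnt signalling (0.960), and Etv5, a transcription factor of the ETS family (0.957). They were taken as the highest of 11,204 probes over only 8 arrays, so the values are a description. With group means removed, r was 0.951, 0.941, 0.939, 0.932 and 0.928. Their own log2 changes ran from -0.40 for Nkd2 to -0.25 for Fam20c, and 4 of the 5 (all but Fam20c) passed an unadjusted limma p under 0.05 and 0 an adjusted one. Over all detected probes 12.7% passed the unadjusted threshold, and these 5 were picked for following App, which was itself lower in the mutant. The probes of Fam163a and Nkd2 were dim, with means of 51.4 and 67.3 units in mutant and 66.8 and 86.9 in wild-type arrays.

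Sort1, the sortilin receptor that binds amyloid precursor protein and apolipoprotein E, had no overlap between the groups although it did not pass the unadjusted limma threshold. It spanned 9939 to 10,876 units in mutant and 11,262 to 12,383 in wild-type arrays, a log2 change of -0.16 (SE 0.0850, limma unadjusted p = 0.0949, adjusted p = 0.465). It was singled out after its values were seen, and 8.04% of all genes had no overlap between the groups.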
